A study of Macaca mulatta with 6 samples.

Results

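A set of 10 genes that build and crosslink elastic fibres was followed in RF/6A, a cell line from rhesus macaque that is labelled as choroidal endothelial. The 10 genes, taken by symbol from a fixed list, are the fibrillins FBN1 and FBN2, the fibulins FBLN1 and FBLN2, the microfibril protein gene MFAP5, and the lysyl oxidases LOX, LOXL1, LOXL2, LOXL3 and LOXL4. All 10 were found among the 24932 genes of the table, as 22 transcripts, and 7 of them were among the 11818 genes that averaged 1 FPKM or more, the level needed to enter the test. FPKM is a fragment number scaled for transcript length and library depth, so levels of different genes can be set side by side. The tested cells received 50% normal human serum for 4 hours, in which complement is active and can form the membrane attack complex, a pore in the cell membrane (3 libraries). The control cells received 50% human serum inactivated by heat for the same time (3 libraries). Both were confluent layers grown on porous culture inserts, and polyadenylated RNA was sequenced. Complement was not depleted or blocked by any other means, so its effect cannot be told apart from anything else that heating changes in serum.

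Elastic fibres have an elastin core laid down on a scaffold of microfibrils. Fibrillins are the backbone of these microfibrils, fibulins and microfibril-associated glycoproteins help to assemble the fibre, and lysyl oxidases are copper enzymes that oxidise lysines of elastin and collagen so that the chains can be crosslinked. Bruch's membrane, the sheet between the choroidal capillaries and the retinal pigment epithelium, contains a layer of elastic fibres.

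Libraries separated by treatment on the first principal component, with 61.1% of the variance, and the replicate 1 library of each treatment stood apart on the next, with 13.2%. The lowest values placed the depth of replicates 2 and 3, after the authors' scaling of the libraries, between 14200000 and 17200000 fragments. The replicate 1 libraries gave only approximate depths. The labels do not say that the replicates came from separate cultures, and the p-values rest on a spread that may be technical. Of 11 endothelial markers 4 reached the test, all higher in normal serum, while 27.8% of all genes tested were called higher. The 11 summed to 97.9 to 104 FPKM in normal serum and 73.8 to 75.8 FPKM in heat-inactivated serum. ENG was the largest part, at 74.2 ± 6.31 FPKM in normal serum against 61.2 ± 0.309 FPKM in heat-inactivated serum. FLI1 stood at 12.2 against 6.58 FPKM, PECAM1 at 7.95 against 3.35 FPKM and ESAM at 4.91 against 2.63 FPKM. The other 7 were too low to test and went both ways: VWF (von Willebrand factor) stood at 1.05 ± 0.0656 FPKM in normal serum against 0.172 ± 0.0133 FPKM in heat-inactivated serum, CDH5 (VE-cadherin) stood at 0.0110 FPKM in normal serum and was listed at 0 in heat-inactivated serum, and KDR, a VEGF receptor, stood lower in every normal serum library, at 0.105 ± 0.0523 FPKM against 0.370 ± 0.0365 FPKM in heat-inactivated serum. TEK, TIE1, CLDN5 and ERG were each under 1 FPKM, with overlapping groups. With PECAM1 and ESAM present but VWF, CDH5, KDR, TEK and TIE1 low, these markers do not establish the labelled cell type. Fibroblast and mural markers summed to 3392 to 3562 FPKM in normal serum and 6882 to 7416 FPKM in heat-inactivated serum. Of the 10 tested, 8 were called lower and 2 higher, beside 26.1% and 27.8% of all genes tested. COL1A1 was the largest part, at 2026 FPKM in normal serum against 3870 FPKM in heat-inactivated serum. The 2 called higher were CSPG4, at 40.9 against 14.5 FPKM, and THY1, at 209 against 156 FPKM. Fibroblasts are a main source of the genes described here, and the part of these marker changes in the results below was not tested. In bulk RNA, fewer cells of a type and less RNA per cell cannot be told apart.

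In normal serum both fibrillin genes and LOXL3 were lower, LOX and LOXL2 were higher, and LOXL1 and FBLN1 did not pass the test. Thus 5 of the 7 tested members were called, 2 higher and 3 lower (limma, adjusted p under 0.05). Over all genes tested 54.0% were called, 27.8% higher and 26.1% lower, so a share of this size is close to that of the whole table. That split depended on the scaling. Without rescaling 3291 genes were called higher and 3090 lower, against 1952 higher and 3672 lower with libraries at 1 common FPKM total. The totals were 1010690, 1016470 and 980877 FPKM in normal serum and 852828, 867794 and 1007950 FPKM in heat-inactivated serum. Heat-inactivated serum replicate 3 thus lay within the range of the normal serum totals. The median log2 change was -0.20 over the 7 tested members and 0.01 over all genes tested. The same 5 genes were those whose groups did not overlap, which held for 62.6% of all genes tested, 32.1% with normal serum higher and 30.5% with it lower.

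**Figure D1:**
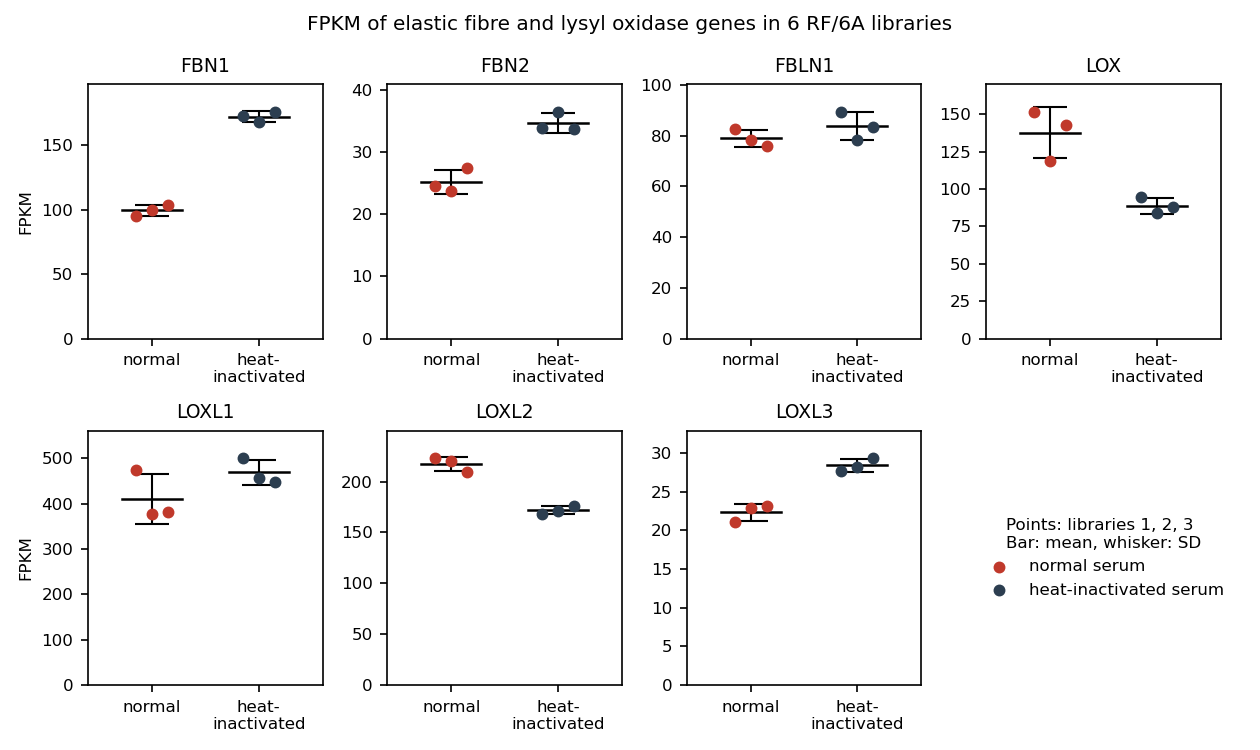
FPKM (vertical axes, each starting at 0) of the 7 tested genes in 3 normal serum libraries (red, left) and 3 heat-inactivated serum libraries (dark blue, right), with points in the order of replicates 1, 2 and 3, a bar at the mean and a whisker of 1 SD. The groups are apart for FBN1, FBN2, LOX, LOXL2 and LOXL3 and overlap for FBLN1 and LOXL1, where normal serum replicate 1 lies at 474 FPKM, above the other 2 libraries of its group.

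FBN1, which encodes fibrillin-1, the main microfibril protein of adult tissue, lies on chromosome 7 in the table. It stood at 95.3, 99.8 and 104 FPKM in the normal serum libraries, against 173, 168 and 176 FPKM in the heat-inactivated serum libraries. Every normal serum library was far below every control library. The mean fell to 57.8% of the control mean, 99.5 ± 4.09 against 172 ± 4.19 FPKM (SD, n = 3 each), a log2 change of -0.78 with SE 0.06 (limma, adjusted p = 4.64e-05). A fall at least as large on the log2 scale was called in 5.44% of all genes tested.

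FBN2, which encodes fibrillin-2, a fibrillin used chiefly in development, lies on chromosome 6. It stood at 24.6, 23.7 and 27.5 FPKM in normal serum and at 33.9, 36.6 and 33.8 FPKM in heat-inactivated serum. The groups did not overlap, and the log2 change was -0.45 with SE 0.07 (limma, adjusted p = 0.00192). Fibrillin transcripts summed to 125 ± 5.65 FPKM in normal serum and 207 ± 2.80 FPKM in heat-inactivated serum. FBN1 made up 79.8% ± 0.904 of that sum in normal serum and 83.2% ± 0.955 in heat-inactivated serum, and the FBN1 to FBN2 ratio was 3.77 to 4.20 against 4.59 to 5.21.

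The fall of FBN1 was unequal between its transcripts. A transcript of 9662 bases stood at 28.6, 31.3 and 36.8 FPKM in normal serum, against 78.0, 75.8 and 75.4 FPKM in heat-inactivated serum. A transcript of 4898 bases stood at 66.7, 68.4 and 66.7 FPKM, against 94.6, 92.0 and 101 FPKM. Both fell, the long one to 42.2% and the short one to 70.3% of the control mean. In a limma fit over all 15719 transcripts that averaged 1 FPKM or more, where 39.6% were called and 18.6% were called lower, the log2 change was -1.23 with SE 0.10 for the long transcript (adjusted p = 3.78e-04) and -0.50 with SE 0.05 for the short one (adjusted p = 0.00112). In the authors' deposited table the log2 fold changes of these transcripts were -1.24 and -0.51, with q-values of 2.23e-04 and 0.00118. A second FBN1 entry of 9662 bases was listed at 0 in every library.

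The long transcript therefore held 30% to 35.6% of FBN1 FPKM in normal serum, against 42.8% to 45.2% in heat-inactivated serum. Its ratio to the short transcript was 0.43, 0.46 and 0.55 in normal serum and 0.82, 0.82 and 0.75 in heat-inactivated serum. These ratios did not overlap (exact permutation test, two-sided, p = 0.1, the smallest that 3 against 3 allows). Cufflinks divides fragments shared by overlapping transcripts by a model, which adds error that the spread between libraries need not show. Changes also varied with transcript length over the whole table. Among 147 tested transcripts of at least 8000 bases, 40.1% were called lower and 9.52% higher, with a median log2 change of -0.27, against 11.6% lower and 20.4% higher and a median of 0.09 among those under 1000 bases. FBN1 at -1.23 lay below the 10th percentile of the long transcripts, -0.74, while the FBN2 transcript of 9338 bases, at -0.45, lay inside their range. The part of this trend in the fibrillin results was not tested. With only its highest transcript standing for the gene, FBN1 had a log2 change of -0.50 (limma, adjusted p = 6.00e-04).

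FBLN1, which encodes fibulin-1, a calcium-binding protein of elastic fibres and basement membranes, lies on chromosome 10. It stood at 82.7, 78.1 and 76.0 FPKM in normal serum and at 89.4, 78.4 and 83.3 FPKM in heat-inactivated serum. The groups overlapped, and the log2 change of -0.08 had a 95% interval of -0.24 to 0.08 (limma, adjusted p = 0.338). With quantile normalization it was called lower, at -0.27 (limma, adjusted p = 0.0130). Its 2 expressed transcripts, of 2784 and 2144 bases, kept similar shares, the longer one 52.3% to 55.6% in normal serum and 50.4% to 54.1% in heat-inactivated serum. The shorter one stood at 36.4, 37.2 and 35.4 FPKM in normal serum, against 44.1, 38.1 and 38.1 FPKM in heat-inactivated serum. These groups did not overlap, but the change did not pass (limma over transcripts, adjusted p = 0.199). With quantile normalization this transcript was called lower, at -0.28 (limma over transcripts, adjusted p = 0.0384).

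The other 3 members were at or near 0. FBLN2, which encodes fibulin-2, ranged from 0.0272 to 0.103 FPKM in normal serum and from 0 to 0.0562 FPKM in heat-inactivated serum, at most about 3.94 fragments in a library. LOXL4 stood at 0.0347 FPKM in 1 normal serum library and was listed at 0 in the other 2, against 0.146, 0.115 and 0.0328 FPKM in heat-inactivated serum, about 0.989 to 4.73 fragments. For neither was a difference detectable at this depth (exact permutation test, two-sided, n = 3 each, p = 0.4 for FBLN2 and 0.2 for LOXL4, where 0.1 is the smallest possible). MFAP5, whose product binds fibrillin on microfibrils, was listed at 0 in all 6 libraries.

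LOX, the founding lysyl oxidase, lies on chromosome 6 and has 1 transcript in the table. It stood at 152, 119 and 143 FPKM in normal serum, against 94.4, 84.0 and 87.7 FPKM in heat-inactivated serum. The lowest normal serum library was above the highest control library. The mean rose 1.55-fold, 138 ± 16.9 against 88.7 ± 5.26 FPKM, a log2 change of 0.62 with SE 0.10 (limma, adjusted p = 0.00148). A rise at least as large was called in 9.71% of all genes tested. The direction of LOX was thus opposite to that of both fibrillins, and the ratio of LOX to FBN1 was 1.19 to 1.59 in normal serum and 0.498 to 0.547 in heat-inactivated serum.

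LOXL1, which acts mainly on elastin and is needed for elastic fibre upkeep in mice, lies on chromosome 7 and was the most abundant member, ranking 254th of the 24932 genes by mean FPKM. It stood at 474, 377 and 381 FPKM in normal serum and at 500.2, 458 and 449 FPKM in heat-inactivated serum. Normal serum replicate 1 lay inside the range of the controls, and the other 2 normal serum libraries lay below all of them. The log2 change of -0.20 had a 95% interval of -0.43 to 0.04 and did not pass (limma, adjusted p = 0.132). Without normal serum replicate 1 LOXL1 was called lower, with a log2 change of -0.30 (limma, adjusted p = 0.0132), and within replicates 2 and 3 alone it was -0.26 (limma, adjusted p = 0.0164). It was also called lower with libraries set to equal total FPKM, at -0.34 (limma, adjusted p = 0.0492), and with quantile normalization, at -0.47 (limma, adjusted p = 0.00744).

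LOXL2, known for crosslinking collagen IV of basement membranes, lies on chromosome 8. It stood at 223, 219.9 and 209 FPKM in normal serum, against 169, 171 and 176 FPKM in heat-inactivated serum. The groups were apart, with a rise of 1.26-fold and a log2 change of 0.33 with SE 0.05 (limma, adjusted p = 0.00173). This call depended on the scaling. With every library rescaled to the same total FPKM, which moved the median log2 change of all genes to -0.12, LOXL2 stood at 0.19 (limma, adjusted p = 0.0975), and with quantile normalization at 0.08 (limma, adjusted p = 0.173).

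Among LOXL2 transcripts, the largest relative rise was in one of 1681 bases, at 68.9, 57.1 and 51.8 FPKM in normal serum and 38.7, 30.3 and 32.7 FPKM in heat-inactivated serum. Its log2 change was 0.79 with SE 0.13 (limma over transcripts, adjusted p = 0.00544), and it stayed between 0.62 and 0.88 and called under all 17 alternatives run, both rescalings included. The transcript of 3175 bases, which held most of the LOXL2 signal, had a log2 change of 0.25 (limma over transcripts, adjusted p = 0.0237), a call that ended without any one of 4 of the 6 libraries (adjusted p from 0.0507 to 0.0785 in the same fit), within replicates 2 and 3 alone and under both rescalings; with quantile normalization its direction turned, to -0.00799. A transcript of 1827 bases stood at 19.5 ± 2.46 FPKM in normal serum and 21.7 ± 1.45 FPKM in heat-inactivated serum, which did not pass (limma over transcripts, adjusted p = 0.295). The 1681-base transcript held 24.8% to 30.9% of LOXL2 FPKM in normal serum and 17.7% to 23.0% in heat-inactivated serum (exact permutation test, two-sided, p = 0.1, the smallest possible). In the authors' deposited table its log2 fold change was 0.81 with a q-value of 0.0121.

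LOXL3, a lysyl oxidase of the LOXL2 type with scavenger receptor domains, lies on chromosome 13. It stood at 21.0, 22.8 and 23.1 FPKM in normal serum and at 27.7, 28.2 and 29.3 FPKM in heat-inactivated serum. The groups did not overlap, and the gene was lower by a log2 change of -0.34 with SE 0.06 (limma, adjusted p = 0.00356). Its transcript of 3126 bases stood at 14.9 ± 0.144 against 20.9 ± 3.25 FPKM, and that of 2405 bases at 7.43 ± 0.995 against 7.45 ± 2.83 FPKM. The longer one had a log2 change of -0.46 (limma over transcripts, adjusted p = 0.0219), a call that ended without any one of 5 of the 6 libraries (adjusted p from 0.0508 to 0.0622 in the same fit), with no filter on low values (adjusted p = 0.0511) and within replicates 2 and 3 alone (adjusted p = 0.108). The sum per gene was steadier between control libraries than either transcript alone. In the authors' deposited table neither LOXL3 transcript had a q-value under 0.05. The longer one had a log2 fold change of -0.49 with a q-value of 0.0991, and the shorter one had a q-value of 0.996.

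**Figure D2:**
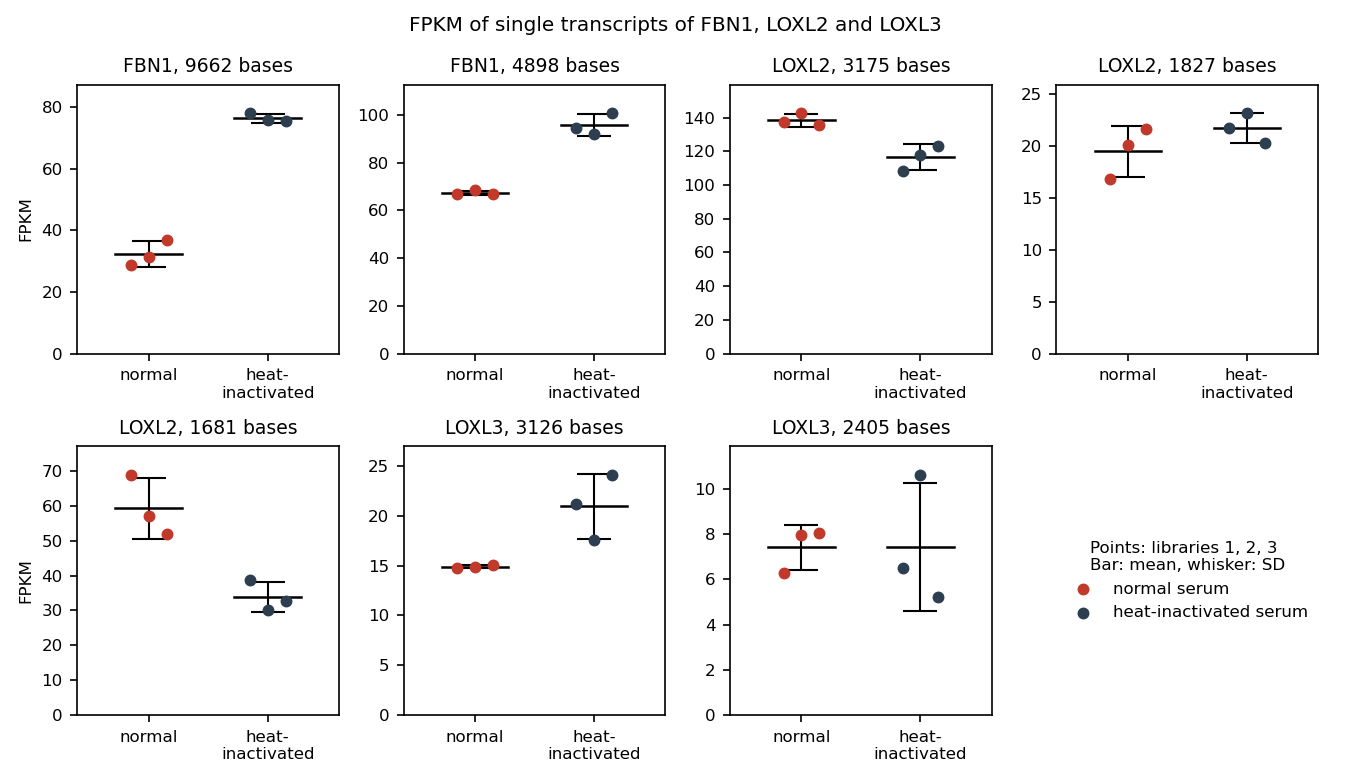
FPKM (vertical axes, each starting at 0) of the expressed transcripts of FBN1, LOXL2 and LOXL3 in 3 normal serum libraries (red, left) and 3 heat-inactivated serum libraries (dark blue, right), with a bar at the mean and a whisker of 1 SD. The 9662-base FBN1 transcript is at 28.6 to 36.8 FPKM in normal serum and 75.4 to 78.0 FPKM in heat-inactivated serum, and the 1681-base LOXL2 transcript is higher in every normal serum library.

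The summed level of the 5 lysyl oxidases was 788 ± 71.2 FPKM in normal serum and 758 ± 28.4 FPKM in heat-inactivated serum, with overlapping ranges, while its makeup differed. LOX held 17.5% ± 1.39 of the sum in normal serum and 11.7% ± 0.319 in heat-inactivated serum. LOXL2 held 27.7% ± 2.07 in normal serum and 22.7% ± 1.27 in heat-inactivated serum. LOXL1 held 52.0% ± 2.20 in normal serum and 61.8% ± 1.39 in heat-inactivated serum. LOXL3 held 2.85% ± 0.379 in normal serum and 3.75% ± 0.232 in heat-inactivated serum (SD, n = 3 each). For each of the 4 genes the ranges of the shares in the 3 libraries of each treatment did not overlap. In FPKM the groups of LOXL1 did overlap, and those of 62.6% of all genes tested did not. Shares within a sum are tied to each other, and each share also moves with LOXL1, the largest part.

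The order of levels also differed. In normal serum it ran LOXL1, LOXL2, LOX, FBN1, FBLN1, FBN2 and LOXL3, with no overlap between neighbours over the 3 libraries. In heat-inactivated serum FBN1 and LOXL2 both averaged 172 FPKM and overlapped, as did LOX and FBLN1, and FBN2 and LOXL3 again came last of the tested members. The spread between libraries of a group was widest for LOXL1 and LOX in normal serum, with coefficients of variation of 13.4% and 12.3%, and between 3.37% and 7.76% for the other 5 tested genes there.

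**Figure D3:**
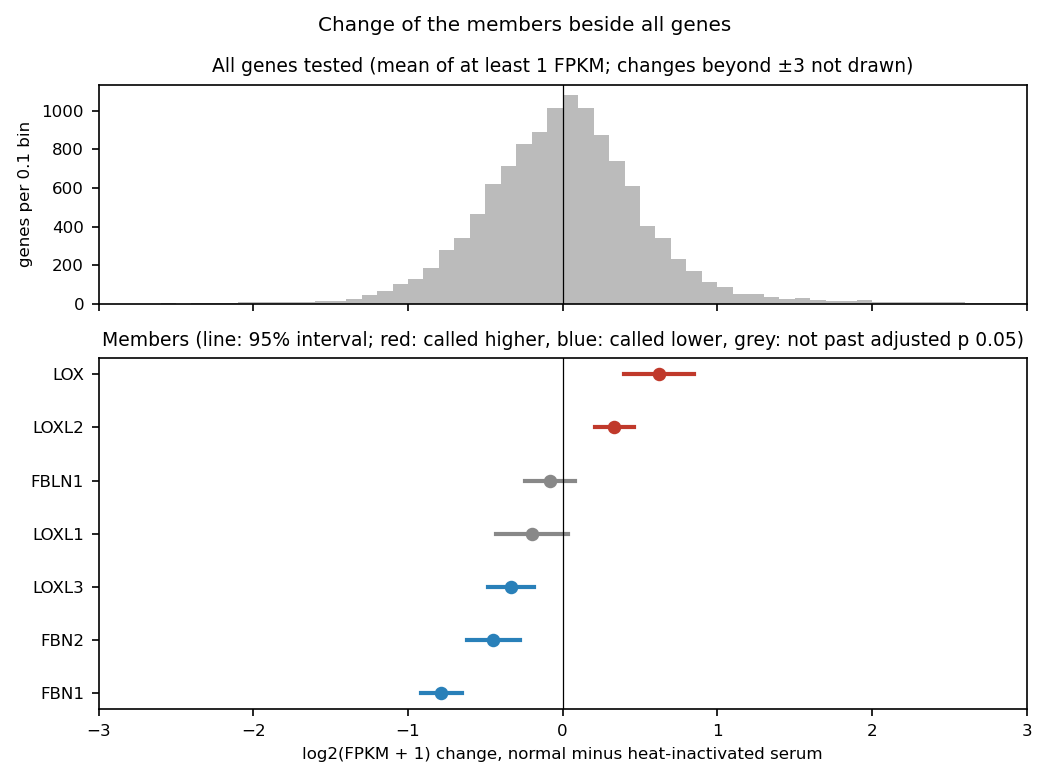
Upper panel: number of genes per 0.1 of log2(FPKM + 1) change, normal minus heat-inactivated serum, over the genes tested. Lower panel: the 7 tested members on the same axis with 95% intervals, red for genes called higher, blue for genes called lower and grey for those not past the threshold; they run from FBN1 at -0.78 to LOX at 0.62, and the intervals of LOXL1 and FBLN1 include 0.

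Across the 6 libraries the genes whose log2(FPKM + 1) followed FBN1 most closely were EHMT2, LRIG1 and DDR2 (Pearson r = 0.9996, 0.9994 and 0.9993). For LOX they were the unnamed gene ENSMMUG00000003649, NOX4 and SLCO4A1 (r = 0.995, 0.995 and 0.993). All points share the same 6 libraries in 2 treatments, so any gene with a clear change in the same direction scores high, and 1448 genes exceeded r = 0.95 with FBN1 and 433 with LOX.

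Of 14 other genes of elastic fibre assembly, 6 were tested, with 3 lower, 0 higher and a median log2 change of -0.29, beside 26.1% lower and 27.8% higher over all genes tested. When genes under 1 FPKM were also put into the limma fit, 1 was higher: HMCN1, a hemicentin gene named after its values were seen. It stood at 0.208 ± 0.0635 FPKM in normal serum against 0.0396 ± 0.00532 FPKM in heat-inactivated serum, near the floor (exact permutation test, two-sided, p = 0.1, the smallest possible). EMILIN1, an elastin microfibril interface protein, fell to 66.4 ± 4.43 FPKM in normal serum, against 121 ± 3.09 FPKM in heat-inactivated serum (limma, adjusted p = 5.59e-05). MFAP2, a microfibril-associated glycoprotein, was lower at 21.3 ± 1.91 FPKM in normal serum against 28.9 ± 2.16 FPKM in heat-inactivated serum (limma, adjusted p = 0.00515). EFEMP1, which encodes fibulin-3 and is mutated in a dominant macular dystrophy, was lower at 1021 ± 68.5 against 1193 ± 27.2 FPKM (limma, adjusted p = 0.0223), a call that ended without any one of 4 of the 6 libraries (limma, adjusted p from 0.0537 to 0.0757) and within replicates 2 and 3 alone (limma, adjusted p = 0.0853). ELN, the elastin gene itself, was listed at 0 in the 3 normal serum libraries and at 0.533, 0.241 and 0 FPKM in the heat-inactivated serum libraries, too low to compare.

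Latent TGF-beta binding proteins, which tether the growth factor to fibrillin microfibrils, moved in both directions, with 1 higher and 1 lower of 3 tested. LTBP1 was higher at 62.6 ± 1.13 against 47.4 ± 5.62 FPKM (limma, adjusted p = 0.00730), a call lost with libraries set to equal total FPKM (limma, adjusted p = 0.0791) and after quantile normalization (limma, adjusted p = 0.0753). LTBP4 was lower at 98.3 ± 6.62 against 127 ± 11.1 FPKM (limma, adjusted p = 0.00806). Of 5 tested ADAMTS and ADAMTSL genes tied to fibrillin, 2 were higher and 3 lower, beside 27.8% and 26.1% of all genes tested. The metalloprotease gene ADAMTS6 rose to 13.9 ± 1.07 FPKM in normal serum, against 4.88 ± 0.209 FPKM in heat-inactivated serum (limma, adjusted p = 2.08e-05), and THSD4, an ADAMTS-like gene, was lower at 1.95 ± 0.271 against 3.23 ± 0.0428 FPKM (limma, adjusted p = 0.00422). ADAMTSL1 and ADAMTSL4 had log2 changes of 0.36 and -0.35. The ADAMTSL1 call was lost without any one of 4 of the 6 libraries (limma, adjusted p from 0.0580 to 0.0783) and that of ADAMTSL4 without any one of 3 (limma, adjusted p from 0.0571 to 0.0772). Both were also lost with the highest transcript per gene (limma, adjusted p = 0.142 and 0.383), ADAMTSL1 with equal total FPKM (limma, adjusted p = 0.143) and ADAMTSL4 within replicates 2 and 3 alone (limma, adjusted p = 0.0850).

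Of 6 tested genes that mature lysyl oxidases, supply copper or act with them, 1 was higher and 3 lower, with a median log2 change of -0.39; over all genes tested 54.0% were called. BMP1, the protease that removes the LOX propeptide and trims procollagen, fell to 50.0 ± 2.72 FPKM in normal serum, against 95.9 ± 4.38 FPKM in heat-inactivated serum (limma, adjusted p = 4.24e-05). Its relative TLL1 was lower at 1.5 ± 0.169 against 2.47 ± 0.301 FPKM (limma, adjusted p = 0.0114). The enhancers of procollagen C-proteinase went in opposite directions: PCOLCE was lower at 68.8 ± 4.29 against 104 ± 9.28 FPKM (limma, adjusted p = 9.23e-04), and PCOLCE2 higher at 113 ± 5.56 against 83.8 ± 2.50 FPKM (limma, adjusted p = 8.35e-04). The PCOLCE2 call was lost when its highest transcript was used in place of the sum (limma, adjusted p = 0.342).

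Of 8 tested lysyl hydroxylases and fibrillar collagens, substrates or partners of the crosslinking reaction, 6 were lower and 1 higher, against 26.1% lower and 27.8% higher over all genes tested, with a median log2 change of -0.39. COL3A1 and COL11A1 had log2 changes of -1.25 and -0.91, and COL1A1 one of -0.93. PLOD3, a lysyl hydroxylase, was higher at 83.5 ± 3.55 against 58.9 ± 1.45 FPKM (limma, adjusted p = 3.87e-04). Collagens of this list are also fibroblast markers, so the fall of that marker list given above is not independent of it.

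Among elastin-degrading proteases and their inhibitors, 5 were higher and 3 lower of 9 tested (27.8% and 26.1% over all genes tested), with a median log2 change of 0.58. All 3 tested inhibitors were higher, whereas of the 6 proteases 2 were higher and 3 lower, with a median of -0.02. This split was made after the values were seen. MMP9, a gelatinase that cleaves elastin, had a log2 change of 3.80, CTSL (cathepsin L) one of 0.88 and TIMP3, an inhibitor of metalloproteases held in Bruch's membrane, one of 0.81. MMP2 was lower, with a log2 change of -0.83.

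**Figure D4:**
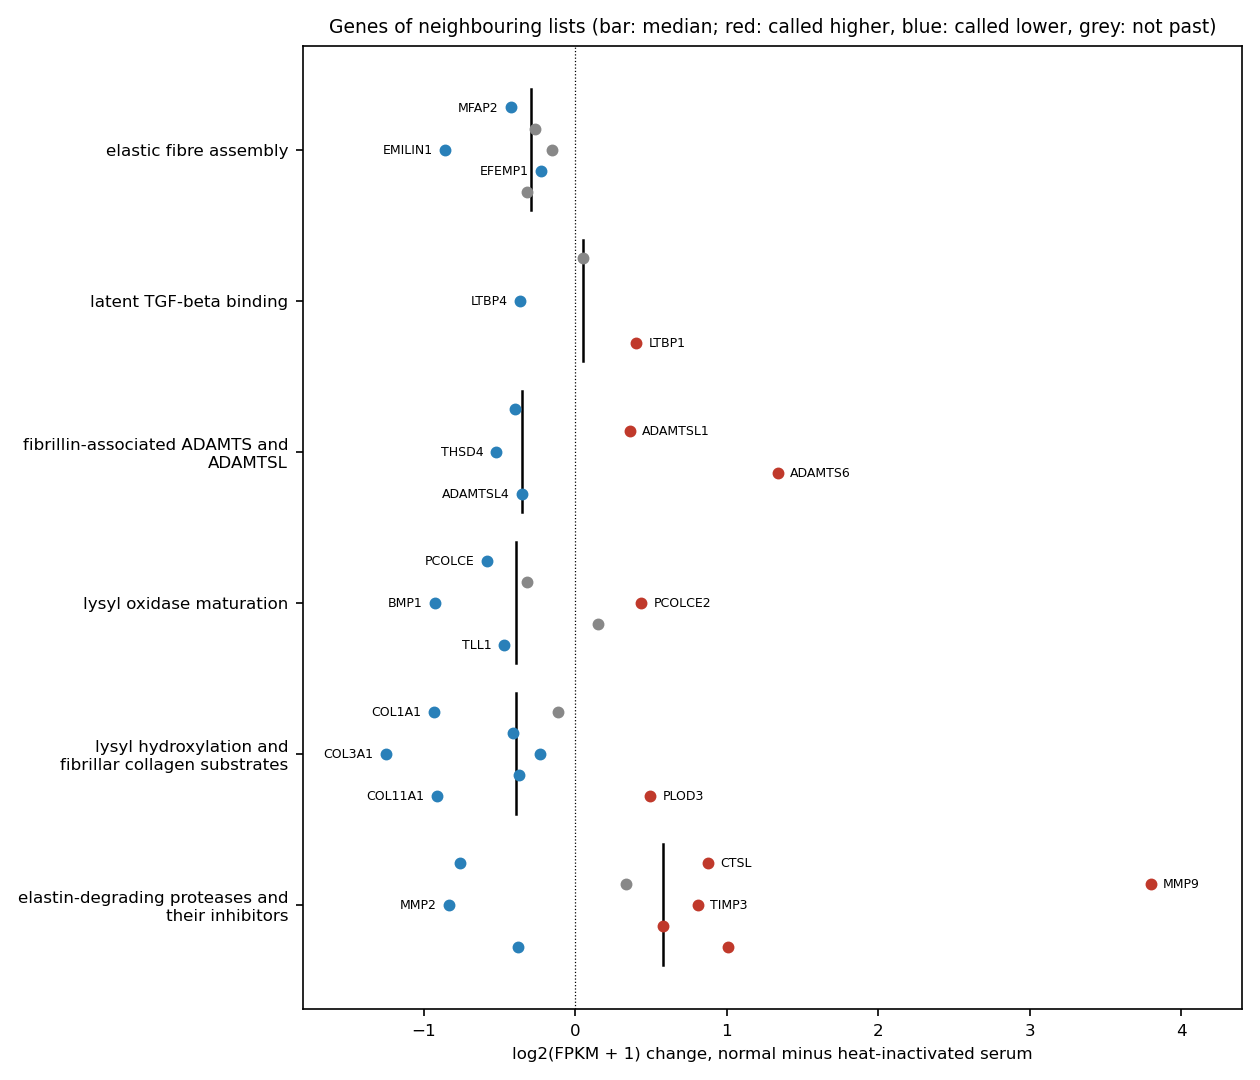
Log2(FPKM + 1) change, normal minus heat-inactivated serum (horizontal axis), of the tested genes of 6 neighbouring lists (rows), with red for called higher, blue for called lower and grey for not past the threshold, and a bar at each median. Vertical offsets within a row only separate the points. Medians run from -0.39 for lysyl oxidase maturation and for the list of lysyl hydroxylases with collagens to 0.58 for the list of proteases with their inhibitors, with MMP9 farthest right at 3.80.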

How the data were processed

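Per the submitters' processing notes, the reads went through TopHat2 2.0.7, Cufflinks 2.1.1 and Cuffdiff 2.1.1, with a genome build not given in the sources used here. For each transcript the authors deposited FPKM in every library, plus a log2 fold change with its p-value and q-value. Transcripts (44605) were summed by symbol to 24932 genes; of 7008 identifiers lacking a symbol, 256 were named from a gene name table, none of them a member. Strand use is not stated in the labels, so overlapping genes are not told apart. Genes that averaged 1 FPKM or more were tested on log2(FPKM + 1) with limma 3.58.1 under R 4.3.3 (trended empirical Bayes variance, Benjamini-Hochberg over all genes). This scale understates changes of low genes, and any fold given is a ratio of mean FPKM. The fit was checked on simulated data with independent noise and few changed genes. Far more genes were called here, so that check does not cover the p-values of these data. Genes below 1 FPKM were compared by exact permutation tests.

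The members and lists were chosen with earlier results of these data known. All members were named, with up to 4 called genes per list by smallest adjusted p, ELN, and the 3 genes most like FBN1 and LOX. The fit over transcripts was chosen after seeing the data. Depth, after the authors' scaling, was read from the lowest values of single-transcript genes, taken per effective length. Effective length is length minus an offset, set in each library where the most values lay near whole fragments. Within 0.1 fragments, 100% were then whole in replicates 2 and 3. In the replicate 1 libraries of normal and heat-inactivated serum 48.4% and 54.3% were. The 20% that chance gives does not allow for this choice of offset. Fragment numbers in the text are such estimates. Alternatives varied pseudocount, filter, scaling, variance model, summing and the libraries included.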

Additional observations from a re-analysis of the deposited data

How the results depend on the processing

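Under all 18 alternatives, FBN1, FBN2, LOX and LOXL3 kept their direction and their call, with log2 changes of -1.0 to -0.50, -0.59 to -0.41, 0.43 to 0.73 and -0.47 to -0.29. LOXL2 stayed positive and lost its call with both rescalings, and the members called higher then numbered 1 with the same total FPKM and 1 with quantile normalization. The same total FPKM called 4 members lower, adding LOXL1, and quantile normalization 5, adding LOXL1 and FBLN1. Leaving out each library gave 2 members higher throughout and 3 to 4 lower, the 4th being LOXL1 without normal serum replicate 1. Over all genes, rescaling to the same total gave 1952 calls higher and 3672 lower, against 3291 higher and 3090 lower without it.

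The labels do not say that the replicate numbers pair the libraries, so they were not taken as pairs. Same-numbered libraries deviated together by r = 0.19, 0.03 and 0.01 across genes, against -0.13 to 0.11 between libraries of unlike number. With a replicate block 2 members were higher and 4 lower; the addition was LOXL1 (log2 -0.20, limma, adjusted p = 0.0332), which a term for the replicate 1 libraries also called (limma, adjusted p = 0.0165).

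The 3175-base LOXL2 transcript, called higher at 0.25, turned to -0.00799 with quantile normalization. Transcripts not called also changed sign. The 2405-base LOXL3 transcript was at -0.0884 with the same total FPKM, and from -0.16 to 0.30 without each library in turn. The 2784-base FBLN1 transcript ran from -0.10 to 0.00230 without each library. The causes were not tested. Depth limits FBLN2 and LOXL4, at under 5 fragments in each library.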
